A study of Mus musculus with 58 samples.

Results

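The RUNX family of transcription factors was followed in mouse hematopoietic stem cells (HSCs) through 5 of the 55376 genes in the RNA count tables: Runx1, Runx2, Runx3, Cbfb and Runx1t1. They were selected by symbol with earlier results of these data known: Runx3 had been seen to differ between restricted and ad libitum fed HSCs at both ages, and Runx1t1 between the old groups. Those differences, and others of the same 2 genes that share libraries with them, are given as values from which no test is read. The files used held 34 libraries of RNA-seq, 6 of ATAC-seq, 6 of ChIP-seq for the factor PU.1 and 4 for histone marks, all from bone marrow HSCs of C57BL/6 mice, labelled WT outside the transplant experiment. Old male mice (24 to 26 months) had been fed ad libitum (OAL, n = 4), kept on lifelong caloric restriction (OCR, n = 4), or restricted for life and then refed ad libitum (OCRRF, n = 2). Young male mice (3 to 4 months) had been fed ad libitum (YAL, n = 4), restricted for 4 weeks (YCR, n = 4), or restricted for 4 weeks and refed for 4 weeks (YCRRF, n = 4). In the transplant experiment, HSCs of old ad libitum fed mice were infected with a GFP-labeled scramble shRNA virus (GFP Scramble, n = 2) or a Kdr shRNA virus (Kdr KD, n = 4). Further cells received GFP and mCherry scramble viruses together (Double Scramble, n = 2) or the Kdr virus with either of 2 Bmpr1a shRNA viruses (Kdr and Bmpr1a KD, n = 2 for each shRNA). The cells had not been sorted for a reporter before transplantation into irradiated young female recipients, so infected and uninfected cells went in together. At the end the knockdown HSCs were sorted from the recipients for RNA-seq. The paper describes the scramble controls as infected HSCs purified by their reporters, GFP alone or GFP with mCherry. ATAC-seq and PU.1 values cover old mice alone, the histone values cover OCR alone, and the OAL libraries of ATAC-seq and histone marks were not analysed here. Neither the labels nor the methods tie a library to a given animal, so p-values measure the spread between these libraries, which may be technical.

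RUNX1, RUNX2 and RUNX3 share a DNA-binding Runt domain, and each binds DNA tightly only as a dimer with the protein made from Cbfb, which does not itself touch DNA. RUNX1 is required for the emergence of HSCs and later restrains and directs their differentiation, RUNX2 is the master factor of bone formation, and RUNX3 is known for its work in cytotoxic T cells and innate lymphocytes. Runx1t1 encodes ETO, a corepressor best known as the fusion partner of RUNX1 in acute myeloid leukemia. Each RUNX gene is transcribed from a distal and a proximal promoter, which give proteins with different first residues. PU.1, the product of Spi1, is a factor of myeloid and stem cells whose own gene is a RUNX1 target.

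The distal promoters of the RUNX genes are printed here because they share a stretch that the choice of genes did not use. It was searched for as the longest stretch common to the member promoters with 2 or more RUNX motifs, which were these 3. That all of them hold it follows from the search. The sequences are RefSeq promoters of GRCm38.p6, 250 bases before to 50 after the annotated start, read on the strand of the gene. Capitals mark the RUNX motif TGTGGT or its reverse complement ACCACA and the PU.1 core GAGGAA or its reverse complement TTCCTC, searched on both strands.
Runx1 distal promoter, chr16:92826025-92826324, minus strand: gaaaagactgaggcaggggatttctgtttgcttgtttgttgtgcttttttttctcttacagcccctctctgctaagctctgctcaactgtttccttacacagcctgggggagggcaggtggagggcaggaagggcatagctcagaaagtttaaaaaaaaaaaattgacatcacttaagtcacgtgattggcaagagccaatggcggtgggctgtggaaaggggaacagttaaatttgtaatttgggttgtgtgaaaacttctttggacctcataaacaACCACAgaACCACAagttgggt
Runx2 distal promoter, chr17:44814578-44814877, minus strand: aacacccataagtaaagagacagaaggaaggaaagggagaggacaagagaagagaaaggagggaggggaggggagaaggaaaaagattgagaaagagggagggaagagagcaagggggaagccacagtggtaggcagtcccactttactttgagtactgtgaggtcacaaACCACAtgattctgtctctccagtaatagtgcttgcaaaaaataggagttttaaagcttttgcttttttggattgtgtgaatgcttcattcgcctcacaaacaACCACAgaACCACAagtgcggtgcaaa
Runx3 distal promoter, chr4:135120395-135120694, plus strand: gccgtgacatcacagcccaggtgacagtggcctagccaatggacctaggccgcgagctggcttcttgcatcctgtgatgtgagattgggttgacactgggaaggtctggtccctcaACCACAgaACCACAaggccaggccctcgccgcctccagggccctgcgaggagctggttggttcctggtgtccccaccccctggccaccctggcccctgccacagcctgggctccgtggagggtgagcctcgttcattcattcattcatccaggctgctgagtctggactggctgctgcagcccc
All 3 hold the stretch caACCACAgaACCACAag, 18 bases with a pair of RUNX motifs in the same direction. The pair lies 29 to 42 bases into the Runx1 transcript, 24 to 37 bases into the Runx2 transcript, and from 134 to 121 bases before the Runx3 start. Of 32851 promoters of 300 bases, 4 (0.0122%) hold this stretch: Runx1, Runx2, Runx3 and Gm16225, a noncoding RNA that runs opposite to Runx3 from the same region. The hexamer alone is common, with a match in 16.8% of all promoters. The proximal promoters of Runx1 and Runx3 and the Cbfb promoter held no RUNX hexamer in their windows, and no Runx1t1 or proximal Runx2 promoter was in the table.

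Cbfb was the most abundant member per kb of exon over the diet libraries, and Runx3 and Runx1t1 were the least. Over the 22 diet libraries the median level was 50.4 CPM per kb for Cbfb, 13.3 for Runx1, 7.17 for Runx2, 4.31 for Runx1t1 and 4.17 for Runx3, with CPM scaled by TMM. Cbfb stood at 1.74 to 2.0 times the summed level of the 3 RUNX genes per kb in the 6 group means. Runx1 made up most of the RUNX sum in OAL HSCs, at 58.5% ± 2.58 (SD, n = 4), with 27.1% ± 1.88 for Runx2 and 14.4% ± 1.03 for Runx3. In OCR HSCs the shares were 50.1% ± 4.03, 25.0% ± 1.66 and 24.9% ± 3.04. The Runx3 share was thus higher in restricted cells, and the same held in the young, with 9.98% ± 0.653 in YAL and 23.4% ± 5.77 in YCR (n = 4 each). The refed groups stood between, at 17.9% ± 2.47 in OCRRF (n = 2) and 13.9% ± 6.19 in YCRRF (n = 4). These shares carry the Runx3 difference that chose the gene, and are given with no test.

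**Figure D1:**
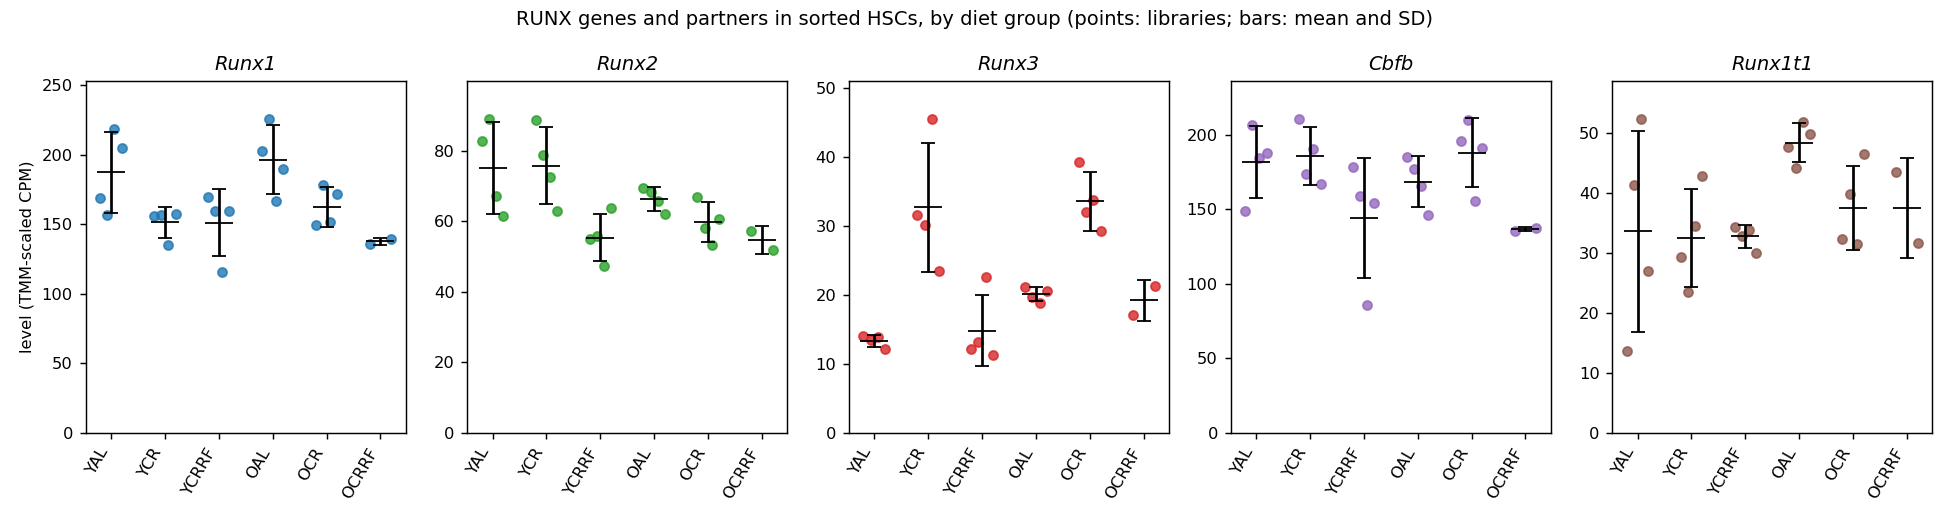
Level of each gene (CPM, TMM-scaled across the 22 diet libraries) by diet group, with a point for each library and bars for the mean and SD. Runx3 is the gene whose OCR libraries (29.2 to 39.3) and YCR libraries (23.4 to 45.6) all lie above their ad libitum groups, and Cbfb, Runx1 and Runx2 have their lowest point in YCRRF replicate 3.

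Runx3 was higher under lifelong restriction, and the old groups did not overlap. Its level was 21.2, 19.8, 18.8 and 20.5 CPM in the 4 OAL libraries and 39.3, 32.0, 33.7 and 29.2 CPM in the 4 OCR libraries. The lowest OCR library was above the highest OAL library, and the log2 fold change was 0.76 (SE 0.11). Among all 27150 genes tested in OCR versus OAL, edgeR called 5.57%, with 2.54% higher and 3.03% lower in OCR. Of the 5 members 1, Runx3, was called, and it is the gene this contrast helped to choose, so nothing is read from that count. Leaving out each library in turn gave 0.67 to 0.82.

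Restriction for 4 weeks in young mice gave a Runx3 difference in the same direction, with a wider spread among restricted libraries. The level was 14.0, 13.4, 13.9 and 12.1 CPM in YAL and 31.7, 30.1, 45.6 and 23.4 CPM in YCR. The YAL libraries lay close together, the YCR libraries were spread over a wide range led by replicate 3, and the groups did not overlap. The log2 fold change was 1.31 (SE 0.22), in a comparison where 0.364% of 18680 genes were called, 0.091% higher and 0.273% lower. Of the 5 members 1 was called, again Runx3, and nothing is read from it. Leaving out each library in turn gave 1.10 to 1.45 on the log2 scale. In a fit of all 4 groups the old minus young log2 difference of Runx3 was -0.55 (SE 0.23), a value that rests on the contrasts that chose the gene. In that fit edgeR called 0.0318% of 28328 genes and 0 of the 5 members, with 1 at an unadjusted p under 0.05 and 0 called by DESeq2.

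After refeeding, Runx3 was back near its ad libitum level. The OCRRF libraries had 17.1 and 21.3 CPM, below all 4 OCR libraries and on either side of the OAL range. The YCRRF libraries had 12.2, 13.2, 22.5 and 11.3 CPM, and all lay below the lowest YCR library, though replicate 3 came near it. The log2 fold changes were -0.80 (SE 0.15) for OCRRF versus OCR and -1.14 (SE 0.30) for YCRRF versus YCR. These comparisons use the same OCR and YCR libraries as the contrasts that chose Runx3, so they are not independent of the choice and carry no p here. In OCRRF versus OCR, where 3.41% of 32577 genes were called, 1 of the other 4 members was called, Cbfb. The Runx3 value was -0.92 to -0.68 when each library was left out in turn. In YCRRF versus YCR edgeR called 0.0102% of 19535 genes and 0 members, with 2 members at an unadjusted p under 0.05 and 1 called by DESeq2. That 1 was Runx3, whose YCR libraries had chosen it, so nothing is read from the call.

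Runx3 was also higher in OAL than in YAL. All 4 OAL libraries (18.8 to 21.2 CPM) lay above all 4 YAL libraries (12.1 to 14.0 CPM). The log2 fold change was 0.63 (SE 0.14). In this comparison 14.8% of 23525 genes were called, and Runx3 was 1 of 5 members called. Both arms are control libraries of the contrasts that chose Runx3, so nothing is read from that call. The call was lost without OAL replicate 1 (log2 fold change 0.61) or OAL replicate 4 (0.62). The OAL libraries detected 42071 to 43972 genes and the YAL libraries 25936 to 28713. Age and this difference between the library sets cannot be told apart. In order of group means, Runx3 ran from YAL (13.3 CPM) through YCRRF (14.8), OCRRF (19.2) and OAL (20.1) to YCR (32.7) and OCR (33.6). Neighbours in that order overlapped in range at every step except from OAL to YCR.

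Megakaryocyte markers overlapped between OAL and OCR and did not overlap between YAL and YCR in their sums. The summed level of the 6 listed markers (Itga2b and Pf4 among them) ranged from 248 to 274 CPM in OAL, 252 to 357 in OCR, 183 to 249 in YAL, 255 to 408 in YCR and 160 to 306 in YCRRF, and was 214 in OCRRF. None of the 6 was at 0 in these groups except Gp6 in YCRRF, and edgeR called 0 of them in either restriction comparison. It called 3 lower in OCRRF versus OCR, where 3.41% of all genes were called, and 2 higher in OAL versus YAL, where 14.8% were. In bulk samples fewer cells of a type and less RNA per cell cannot be told apart, and the part of these cells in the Runx3 difference was not tested. T cells, where RUNX3 is abundant, left a low sum over 7 markers, 15.4 to 17.7 CPM in OAL and 15.9 to 22.1 in OCR. Within it Lck had means of 11.7 and 11.4 CPM, and Thy1 1.35 and 3.32. Of 6 T cell markers tested in OCR versus OAL, 1 was called higher and 0 lower, where 5.57% of all genes were called. In OAL versus YAL 1 of 5 tested was called higher, where 14.8% of all genes were called. The sum of 5 NK cell markers was 57.1 to 68.5 CPM in OAL and 40.1 to 53.2 in OCR. In the young the NK sum was 24.4 to 40.4 CPM in YAL and 37.9 to 57.3 in YCR. The NK markers did not go one way in the old: Klrb1c had a mean of 52.7 CPM in OAL and 27.0 in OCR, and Nkg7 11.0 and 19.2. In OCR versus OAL 1 of the 3 NK markers tested was called higher, Nkg7, and 1 lower, Klrb1c. The genes whose levels followed Runx3 most closely over the 22 libraries, after the mean of each age was removed, were Kcnk12 (Pearson r = 0.889), H2afz, a histone variant (0.836), and Itga2b, the platelet integrin CD41 (0.831). These correlations across libraries share the diet groups and are a description.

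**Figure D2:**
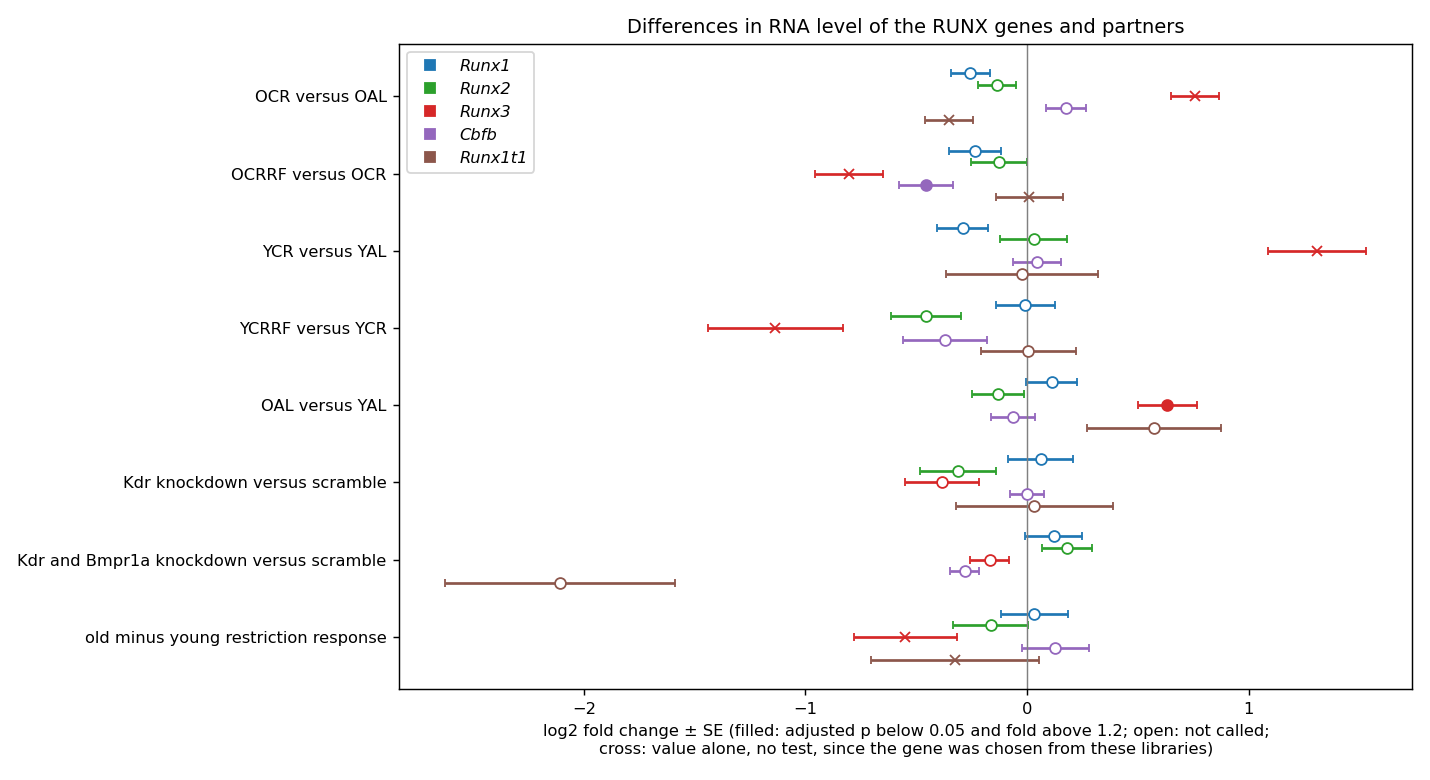
Log2 fold change with its SE (horizontal axis) of each gene in 7 comparisons and in the old minus young difference of the restriction responses, from edgeR. Filled points passed the call rule, as Cbfb did in OCRRF versus OCR. Runx3 is also filled in OAL versus YAL. That comparison shares libraries with the choice of Runx3 and Runx1t1, and nothing is read from their points there. Crosses are values of Runx3 and Runx1t1 in restricted libraries they were chosen from, with no test.

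Runx1, the main RUNX gene of HSCs, had lower means in restricted cells of both ages and did not pass the test in either. Its level was 203, 226, 167 and 190 CPM in OAL and 149, 178, 152 and 172 CPM in OCR, so the ranges overlapped through OAL replicate 3. The log2 fold change was -0.26 ± 0.089 (SE), at an adjusted p of 0.101 by edgeR, and it was called without OAL replicate 3 (-0.33, adjusted p = 0.026). In the young it was 169, 157, 219 and 205 CPM in YAL and 156, 157, 135 and 157 CPM in YCR, with a log2 fold change of -0.29 ± 0.12 (SE), at an adjusted p of 0.447 by edgeR. After refeeding the OCRRF libraries stood at 136 and 140 CPM, below every OCR library, with a log2 fold change of -0.23 ± 0.12 (SE), at an adjusted p of 0.311 by edgeR. OAL versus YAL gave a log2 difference of 0.11 (SE 0.12, edgeR adjusted p = 0.561). Zmiz1, a coactivator of androgen receptor and SMAD factors, followed Runx1 most closely over the 22 libraries (r = 0.853), ahead of Tm7sf3 (0.844) and Dnajc7 (0.824). The antisense gene Gm26626 shares 106 exon bases with Runx1. It too had a lower mean in OCR (6.71 ± 0.283 CPM against 9.09 ± 1.75, SD, n = 4 each), and since the counting is not stated to use strand, reads of the pair cannot be told apart there.

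Runx2 had the narrowest range of the 5 genes over the 22 diet libraries, 1.89-fold from lowest to highest. It was 69.5, 68.4, 65.7 and 62.0 CPM in OAL and 66.9, 58.1, 53.4 and 60.7 CPM in OCR, overlapping groups with a log2 difference of -0.14 (SE 0.086, edgeR adjusted p = 0.489). YAL (61.4 to 89.2 CPM) and YCR (63.0 to 88.9 CPM) spanned nearly the same range. In YCRRF it was 55.0, 55.7, 47.2 and 63.7 CPM, mostly below YCR, with a log2 fold change of -0.46 ± 0.16 (SE), at an adjusted p of 0.509 by edgeR. Runx2os1, which runs antisense to it, shares 519 exon bases with Runx2 and had 7.95 ± 0.823 CPM in OAL and 7.65 ± 0.345 in OCR (SD, n = 4). Cmtm3 (r = 0.891), Fyb (0.87) and Gzf1 (0.846) were nearest to Runx2 in pattern.

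Cbfb, the shared partner, fell after refeeding of old restricted mice. It was 196, 210, 156 and 191 CPM in OCR and 136 and 138 CPM in OCRRF, groups that did not overlap. The log2 fold change was -0.46 ± 0.12 (SE), at an adjusted p of 0.0293 by edgeR. This call was lost without OCRRF replicate 1 (-0.47, adjusted p = 0.337), OCRRF replicate 2 (-0.42, 0.321) or OCR replicate 2 (-0.41, 0.121). Over all genes in OCRRF versus OCR, edgeR called 884 lower and 226 higher, so a lower level was the more common call there. In OAL Cbfb was 185, 177, 166 and 146 CPM, overlapping OCR, at a log2 fold change of 0.17 for OCR versus OAL (SE 0.090, edgeR adjusted p = 0.351). YCRRF had 178, 159, 85.8 and 154 CPM, with replicate 3 the lowest of the 22 diet libraries for Cbfb, Runx1 and Runx2 alike. The genes nearest in pattern were Caprin1 (r = 0.93), Hk1, a hexokinase (0.924), and Ccdc88a (0.921).

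Runx1t1 was the corepressor member with lower levels in OCR. It was 47.6, 44.1, 51.8 and 49.8 CPM in OAL and 32.2, 39.7, 31.5 and 46.4 CPM in OCR, where replicate 4 alone reached into the OAL range. The log2 fold change was -0.35 (SE 0.11). Leaving out each library in turn gave -0.47 to -0.29, the former without OCR replicate 4. Refeeding left it at 43.4 and 31.6 CPM, with a log2 fold change of 0.01 for OCRRF versus OCR (SE 0.15), in a comparison that shares the OCR libraries. In the young the YAL libraries themselves ranged from 13.7 to 52.3 CPM, YCR from 23.5 to 42.7 and YCRRF from 30.0 to 34.3, so no diet difference could be seen beyond that spread. OAL versus YAL gave 0.57 (SE 0.30), in a comparison that shares the OAL libraries. Cr1l (r = 0.855), Mmaa (0.799) and Poldip3 (0.741) were nearest in pattern.

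Counts of called genes in the wider RUNX network are set against the 5.57% called among all genes in OCR versus OAL. Of 17 genes of the ETO family and its corepressors (Tle and Sin3 genes, histone deacetylases), 1 was called in OCR versus OAL, Tle2, a Groucho corepressor, at -0.33 (SE 0.10, adjusted p = 0.0485). That share is near the background, and nothing particular to the list is read from it. The median log2 fold change of the list was -0.03 against 0.02 for all genes. Of 12 coactivators and modifying enzymes, 1 rose, the H3K9 methyltransferase gene Suv39h1 (0.37, SE 0.088, adjusted p = 0.00738), and 1 fell, Wwtr1, which encodes the coactivator TAZ (-0.53, SE 0.088, adjusted p = 0.000146). All adjusted p-values here are from edgeR, and the lists were drawn up with earlier results known.

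Among 16 factors that bind with RUNX1 in blood cells, 1 rose and 3 fell in OCR, where 5.57% of all genes were called. Gata1, the erythroid and megakaryocyte factor, rose in OCR, with 3.19 ± 1.43 CPM in ad libitum and 8.62 ± 2.14 CPM in restricted cells (SD, n = 4 each). Its change on the log2 scale was 1.46 with an SE of 0.24 (adjusted p = 0.000112 by edgeR). Cebpb, a factor of emergency granulopoiesis, fell from 50.7 ± 1.38 to 25.6 ± 4.19 CPM (-0.97, SE 0.11, adjusted p = 1.92e-07). Gfi1 fell by 0.90 on the log2 scale (SE 0.22, adjusted p = 0.00983) and Ldb1 by 0.29 (SE 0.075, adjusted p = 0.0163). In YCR, where 0.364% of all genes were called, the single call in the list was Gfi1b, a repressor of the erythroid and megakaryocyte lines, which rose from 115 ± 4.89 CPM in YAL to 196 ± 43.8 in YCR (log2 change 0.79, SE 0.14, adjusted p = 0.0474 by edgeR). Refeeding of old mice gave the opposite direction for 3 of these. Cebpb rose by 0.64, Gfi1 rose by 1.47 and Gata1 fell by 1.53 on the log2 scale, in a comparison that shares the OCR libraries. There 6 of the 16 were called, against 3.41% of all genes, the others being Gfi1b, Myb and Zfpm1, all lower.

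Of 20 listed RUNX1 targets 17 were tested in OCR versus OAL, 1 of them rose and 2 fell, where 5.57% of all genes were called. Nfe2, a megakaryocyte factor, fell from 599 ± 37.4 CPM in OAL to 490.5 ± 37.7 in OCR, by -0.27 on the log2 scale (SE 0.080, adjusted p = 0.0406 by edgeR). Itgam, the myeloid integrin CD11b, rose by a log2 fold change of 0.99 (SE 0.25, adjusted p = 0.0146) at a mean under 5 CPM. The targets' median log2 fold change was 0.02, against 0.02 for all genes. Of 10 T and NK cell genes regulated by RUNX3, 8 passed the filter on low counts and edgeR called 0, with 0 at an unadjusted p under 0.05 and 0 called by DESeq2. For 9 bone genes regulated by RUNX2 those numbers were 5 tested and 0 by each of the 3 measures. Spi1, which encodes PU.1, did not pass in OCR versus OAL (0.13, SE 0.084, edgeR adjusted p = 0.517). It was lower in OAL than in YAL (-0.61, SE 0.098, edgeR adjusted p = 0.00374), where age and the library sets cannot be told apart.

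The transplanted HSCs carried more Runx3 and less Runx1t1 relative to the other members than the HSCs of the diet groups. The 2 sets were sorted by different surface markers. Diet HSCs were taken as CD34 and Flk2 negative and CD150 positive, transplanted donor HSCs as CD48 negative and CD150 positive. The latter had also been cultured with virus, and their libraries were made and sequenced apart. These differences and transplantation cannot be told apart, so the 2 sets are not compared by a test. The median level per kb over the 12 libraries was 69.9 CPM for Cbfb, 10.9 for Runx3, 10.6 for Runx1, 8.11 for Runx2 and 1.17 for Runx1t1. Runx3 made up 33.5% to 41.3% of the RUNX sum per kb in the 5 group means. The targeted gene Kdr had 6.03 ± 0.00235 CPM in GFP Scramble (SD, n = 2) and 2.37 ± 0.629 in Kdr KD (n = 4), a log2 fold change of -1.35 that did not pass (edgeR adjusted p = 0.247). In the double knockdown Kdr was 4.30 ± 0.479 in Double Scramble and 1.19 ± 0.444 CPM (-1.86, adjusted p = 0.272). Bmpr1a was 4.81 ± 0.532 and 1.98 ± 1.81 CPM (-1.29, adjusted p = 0.602), and in a library of shRNA 1 it stood at 4.44 CPM, inside the scramble range.

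**Figure D3:**
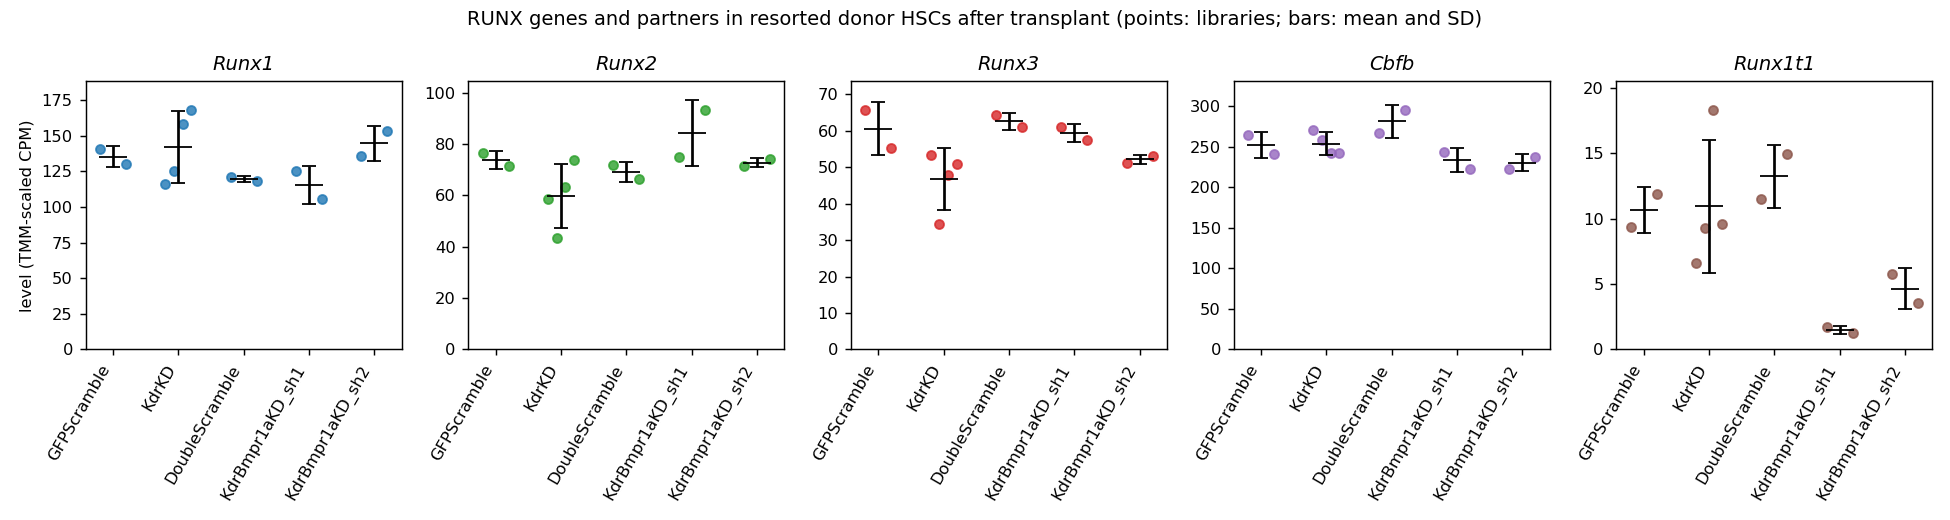
Level of each gene (CPM, TMM-scaled across the 12 transplant libraries) by group, with a point for each library and bars for the mean and SD. Runx1t1 is lower with either Bmpr1a shRNA (1.27 to 5.74) than in Double Scramble (11.5 and 14.9), and Kdr KD libraries are all below the GFP Scramble libraries for Runx3.

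Knockdown of Kdr alone left no member past the test, with 0 of 5 called by edgeR or DESeq2, where edgeR called 0.0149% of 20098 genes. At an unadjusted p under 0.05 by edgeR stood 1 member, and 1789 of all genes. That member was Runx3, at 65.7 and 55.3 CPM in GFP Scramble and 53.4, 34.4, 47.9 and 51.0 CPM in Kdr KD. Every Kdr KD library lay below both scramble libraries, led by replicate 2, and the log2 fold change was -0.38 ± 0.17 (SE), at an adjusted p of 0.555 by edgeR. Runx2 was -0.31 (edgeR adjusted p = 0.632), with 0.06 for Runx1, 0.03 for Runx1t1 and a value near 0 for Cbfb.

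In the double knockdown Runx1t1 was the member farthest from its scramble. It was 11.5 and 14.9 CPM in Double Scramble, 1.71 and 1.27 CPM with Bmpr1a shRNA 1, and 5.74 and 3.53 CPM with Bmpr1a shRNA 2. All 4 knockdown libraries were below both scramble libraries, and shRNA 1 was below shRNA 2. The log2 fold change was -2.11 (SE 0.52) with an edgeR adjusted p of 0.306, in a comparison where 0.00498% of 20072 genes were called, and DESeq2 gave an adjusted p of 0.00597. With shRNA 1 alone edgeR called it (-3.15, SE 0.27, adjusted p = 0.048). Cbfb was 267 and 296 CPM in Double Scramble, 244 and 223 with shRNA 1, and 223 and 238 with shRNA 2, again with no overlap. Its log2 fold change was -0.28 (SE 0.065, edgeR adjusted p = 0.287, DESeq2 adjusted p = 0.011). So 0 members were called by edgeR, 2 stood at an unadjusted p under 0.05, and 2 were called by DESeq2. Over all 20072 genes, 1977 stood at an unadjusted p under 0.05 by edgeR and DESeq2 called 332. Runx3 was 64.3 and 61.0 CPM in Double Scramble and 51.2 to 61.1 in the knockdown (-0.17, edgeR adjusted p = 0.583).

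Stromal markers also had lower sums in these libraries, and 0 of the 4 tested were called by edgeR. The summed level of 6 osteoblast and stroma markers was 14.3 to 18.3 CPM in Double Scramble, 1.52 to 6.57 with shRNA 1 and 1.75 to 4.15 with shRNA 2, led by Cxcl12 and Col1a2, with Bglap at 0 under both shRNAs and Sp7 at 0 under shRNA 2. It was 5.97 to 6.27 in GFP Scramble and 1.75 to 6.01 in Kdr KD. Their part in the Runx1t1 difference was not tested. None of the 6 RUNX lists had a gene called by edgeR in either knockdown. In the Kdr knockdown DESeq2 called 2 genes of the RUNX1 target list, and 303 of all 20098 genes. In the double knockdown it called 1 each of the ETO and target lists, and 332 of all 20072 genes. These list genes were all higher. The lists had from 0 to 5 genes at an unadjusted p under 0.05 per knockdown by edgeR. Over all genes those numbers were 1789 in the Kdr knockdown and 1977 in the double knockdown, and nothing is read from the list counts.

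No open chromatin peak at the RUNX loci was called between OCR and OCRRF. The 5 gene bodies with 10 kb on either side hold 115 of 131918 ATAC-seq peaks: 48 at Runx2, 26 at Runx1t1, 25 at Runx1, 10 at Runx3 and 6 at Cbfb. Of these 112 passed the filter, and 64 were higher in OCR, where the median log2 fold change of all peaks tested was 0.0064. The call rule was a fold above 1.5, a mean log2 CPM above 1.5 and an edgeR adjusted p under 0.05. It called 0.221% of 123372 peaks and 0 at these loci, and DESeq2 called 0 there. At an unadjusted p under 0.05 by edgeR stood 7 of the 112, and 14439 of all 123372 peaks. The largest difference among the 3 peaks closest to the threshold was within Runx1t1 at chr4:13872651-13873455, with 3.66, 4.96, 6.23 and 6.10 CPM in OCR and 7.79 and 9.84 in OCRRF. All OCR libraries were lower (log2 fold change -0.75 ± 0.19 SE, adjusted p = 0.0545 by edgeR), and it was called without OCR replicate 3 (-0.86, adjusted p = 0.0401) or OCR replicate 4 (-0.84, 0.0361).

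At Runx3, 8 of 10 peaks had higher values in OCR, and none was called. The median log2 fold change over all peaks tested was 0.0064, and nothing is read from the count. The distal start was the most open, with 32.2, 30.4, 31.7 and 30.6 CPM in OCR and 27.4 and 29.5 in OCRRF (log2 fold change 0.14 ± 0.089 SE, adjusted p = 0.575 by edgeR). The peak over the proximal start had 7.07, 6.92, 5.72 and 5.65 CPM in OCR and 4.29 and 6.04 in OCRRF (0.30, SE 0.20, edgeR adjusted p = 0.585). The largest difference lay past the 3′ end of the gene, at chr4:135181808-135182223, with 3.71, 3.24, 2.61 and 2.99 CPM in OCR and 1.58 and 1.63 in OCRRF. These groups did not overlap, at a log2 fold change of 0.97 ± 0.28 (SE), at an adjusted p of 0.106 by edgeR. A Runx1 peak at chr16:92821909-92822867 near the distal promoter was also higher in every OCR library, 33.3 to 34.7 CPM against 27.7 and 26.9 (0.33, SE 0.087, edgeR adjusted p = 0.0604).

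In OCR HSCs the RUNX genes differed in which promoter carried H3K4me3, the mark of active starts. Runx1 had its highest signal at the distal start, 49.3 and 45.0 in the 2 libraries (98.8 and 97.6 percentile of 31552 transcripts), and 13.4 and 8.70 at the proximal start. Runx2 was the reverse, with 41.2 and 36.6 at the higher of its proximal starts and 8.80 and 8.44 at the higher of its distal starts. The other distal start, that of the printed promoter, had 7.42 and 7.27. Cbfb had 44.8 and 39.6 at its start (96.6 and 93.4 percentile). Runx3 was low at its distal start, 5.67 and 5.33, and higher at its proximal start, 15.4 and 14.0, where the library medians were 10.2 and 9.64. The signal is the authors' mean per base downstream of the start, scaled to a common depth, over 750 bases for H3K4me3 and 2000 bases for H3K27me3.

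H3K27me3, the Polycomb mark of repressed genes, was above the library median in both libraries at 1 Runx3 start and 2 Runx1t1 starts among the members. The proximal Runx3 start had 3.74 and 3.41 (92.3 and 91.8 percentile), against 0.284 and 0.152 at the distal start and medians of 0.312 and 0.316. Of all transcripts, 482 (1.53%) were at or above this start on both marks, each taken as the mean of the 2 libraries. The upstream Runx1t1 start had 1.71 and 1.45 (86.2 and 84.4 percentile) together with an H3K4me3 signal of 32.0 and 31.1, and its next start had 0.952 and 0.585. The starts of Runx1, Runx2 and Cbfb lay below the library medians, at 0.0465 to 0.267.

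**Figure D4:**
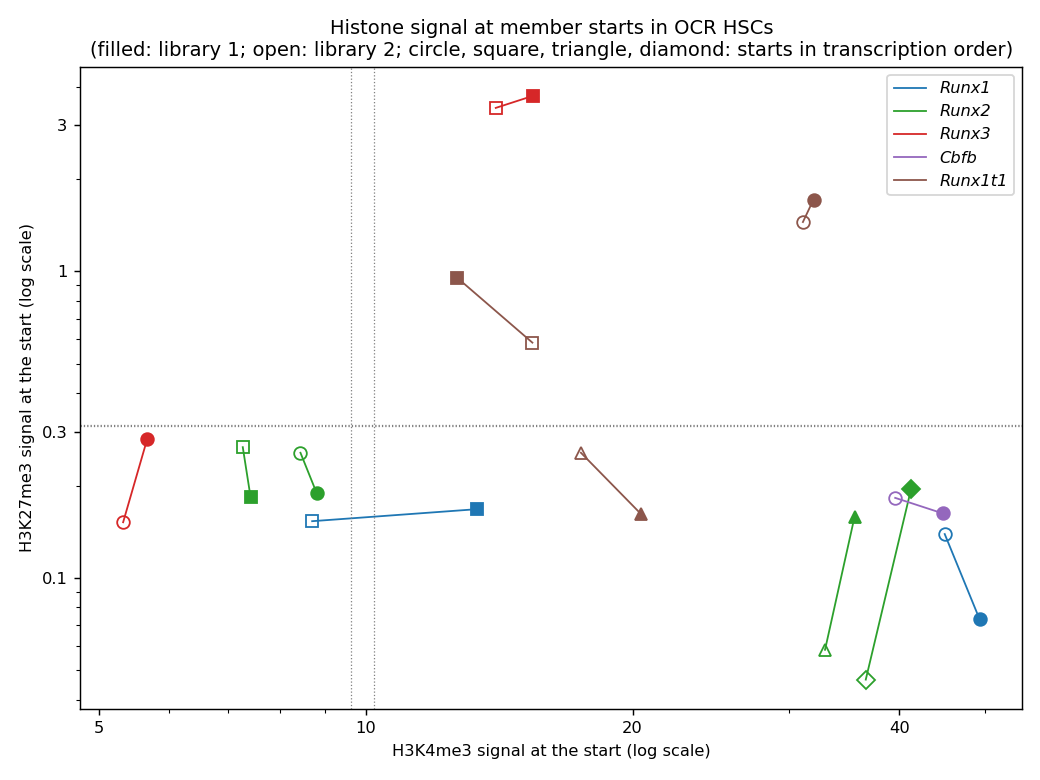
H3K4me3 (horizontal) against H3K27me3 (vertical) signal at each annotated start in the 2 OCR libraries, both on log scales, with lines joining the libraries of a start and dotted lines at the library medians. The proximal Runx3 start and the upstream Runx1t1 starts lie above the H3K27me3 medians, while Runx1, Runx2 and Cbfb starts lie below them.

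PU.1 peaks were called at Runx1, Runx2, Runx3 and Cbfb, and at Runx1t1 in no library. Within 10 kb of the gene bodies there were 12 sites, of which 3 had a peak in all 6 libraries, 5 in 1 library, and 11 lay in an ATAC-seq peak. Within 50 kb there were 16 sites, 4 of them in all 6 libraries. Per library the member loci held 7 and 5 peaks in OAL, 10 and 6 in OCR, and 4 and 5 in OCRRF, where the libraries had 3046 and 2900, 5464 and 3852, and 2817 and 2262 peaks in all. The OCR replicate 1 library had the most peaks both in all and at these loci, and the order of the others was not the same by the 2 counts. Replicate 1 of each group is labelled with a Thermo antibody and replicate 2 carries a batch number, so the replicates are not alike in their labels. With 2 libraries a group the values are given with no test.

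Of the 4 sites called in all 6 libraries, the 3 that hold a RUNX or PU.1 hexamer are printed as 200 bases around the summit (mm10 coordinates, reference sequence GRCm38), on the strand of the gene and with the hexamers in capitals.
Runx3, at -34997 bases from the distal start, chr4:135085548-135085747, plus strand: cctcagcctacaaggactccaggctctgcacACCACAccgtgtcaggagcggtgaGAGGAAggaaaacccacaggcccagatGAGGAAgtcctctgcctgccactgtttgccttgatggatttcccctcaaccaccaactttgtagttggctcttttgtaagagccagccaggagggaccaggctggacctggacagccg
Runx1 intron, 43286 bases past the proximal start, chr16:92653943-92654142, minus strand: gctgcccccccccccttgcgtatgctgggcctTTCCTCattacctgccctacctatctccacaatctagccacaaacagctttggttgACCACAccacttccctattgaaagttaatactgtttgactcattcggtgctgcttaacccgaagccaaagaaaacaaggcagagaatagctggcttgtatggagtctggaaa
Cbfb promoter, 190 bases before the start, chr8:105170384-105170583, plus strand: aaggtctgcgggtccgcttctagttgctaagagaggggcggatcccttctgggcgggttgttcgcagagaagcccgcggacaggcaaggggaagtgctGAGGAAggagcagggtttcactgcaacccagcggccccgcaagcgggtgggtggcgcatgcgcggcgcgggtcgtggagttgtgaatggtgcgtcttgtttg
The Runx3 window holds 2 PU.1 hexamers and 1 RUNX hexamer, the Runx1 window 1 of each, the Cbfb window 1 PU.1 hexamer, and the Runx2 window, 1720 bases past the distal start in a stretch that also lies within Supt3, neither. The PU.1 hexamer was in 61.3% to 64.9% of 200-base windows at all PU.1 summits, against 18.5% of windows 2 kb from the summits of OCR replicate 1, and the RUNX hexamer in 19.7% to 21.4% against 14.0%. A match is a description of the letters and not a measured site.

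The fold enrichment at the Runx3 upstream site was 12.2 and 10.6 in OAL, 11.1 and 10.3 in OCR, and 10.7 and 9.14 in OCRRF, and the groups overlapped. At the Runx2 intron it was 10.6 and 13.7 in OAL, 12.1 and 12.1 in OCR, and 11.9 and 10.4 in OCRRF. The Cbfb promoter had 11.2 and 8.14 in OAL, 13.2 and 10.3 in OCR, and 5.91 and 8.61 in OCRRF, with the lower values in refed cells overlapping OAL. The Runx1 intron site had 6.18 and 9.43 in OAL, 11.4 and 10.0 in OCR, and 5.59 and 8.61 in OCRRF, and both OCR values were above the other 4. A site over the distal Runx1 promoter, which overlaps the printed promoter with its RUNX pair, was called in 5 libraries (6.32 to 11.5) and not in OCRRF replicate 1. The Runx3 site past the 3′ end was called in OCR replicate 1 alone, at 6.82, inside the ATAC-seq peak with the largest Runx3 difference.

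**Figure D5:**
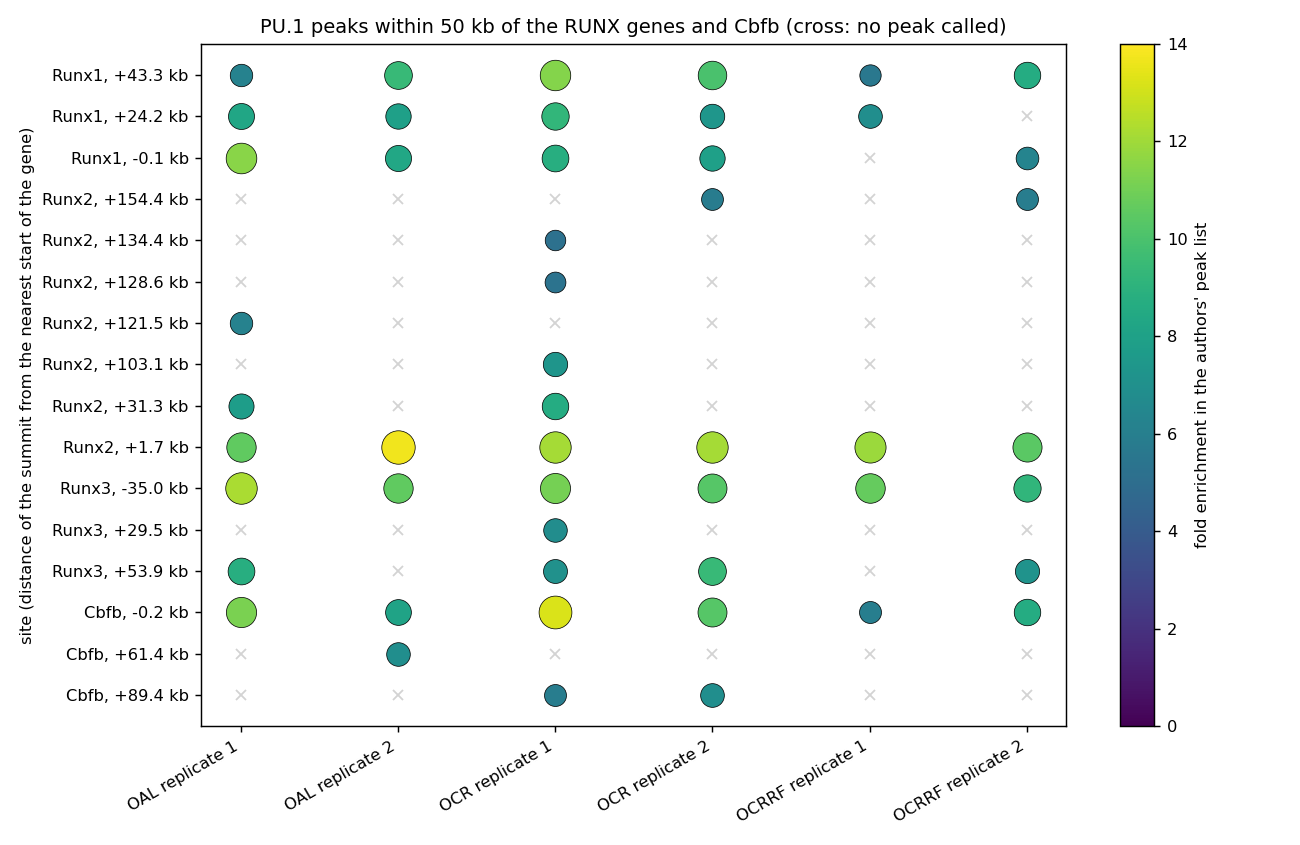
PU.1 peaks (rows, named by distance of the summit from the nearest start of the gene) in the 6 libraries (columns), with size and colour for fold enrichment and crosses where no peak was called. The sites present in all 6 are the Runx1 site 43286 bases past the proximal start, the Runx2 site near the distal start, the Runx3 upstream site and the Cbfb promoter.

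RNA libraries held 11102898 to 36579392 counts in the diet groups and 35657999 to 44780217 in the transplant groups, and ATAC-seq libraries 15721335 to 19558148. At this depth the lowest member level, 1.27 CPM for Runx1t1, still rests on 50 counts. Old diet libraries detected 42071 to 46646 genes and young ones 22209 to 33496, so the 2 ages differ in more than depth. All 11 HSC markers were detected in every group, with summed levels of 4380 to 5040 CPM in OAL and 3740 to 4510 in OCR. Of these 11, 1 was called higher and 5 lower in OCR versus OAL, where 5.57% of all genes were called. Neutrophil markers varied widely, from 2.07 to 279 CPM in YCR, 259 to 1340 in YCRRF and up to 4090 in Double Scramble, and their part in the YCRRF and transplant differences was not tested.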

How the data were processed

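Sorted HSCs were profiled by RNA-seq, by ATAC-seq, and by ChIP-seq for PU.1 and for 2 histone marks. The RNA values are whole-number read counts per gene deposited by the authors, made with STAR and featureCounts on mm10 and GENCODE M22, and the ATAC-seq values are deposited counts over a shared peak set. Whether the counting used strand or multimapped reads is not given in the sources used here. The histone values are coverage signal in windows downstream of transcript starts, scaled by the authors to a common library size after mapping with BWA. The PU.1 files are MACS2 peaks per library, in which the authors deposited fold enrichment over control, -log10 p and -log10 q values, and a peak score.

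Counts were tested with edgeR 4.0.16 (quasi-likelihood, filterByExpr, TMM, R 4.3.3) on all genes of the groups compared, with Benjamini-Hochberg adjustment. A gene was called at a fold above 1.2 and an adjusted p under 0.05. DESeq2 1.42.0, other filters, a replicate block and fits without each library were alternatives. The main edgeR fit and DESeq2 were first tried on simulated RNA counts of the restriction and knockdown comparisons. For ATAC-seq the main edgeR fit alone was tried in this way, and the other alternatives were not. Each fold change uses the TMM factors of its own comparison, while CPM were scaled across the 22 diet or the 12 transplant libraries. The diet and transplant experiments were never tested against each other. PU.1 peaks and sites were assigned to a gene body with 10 kb on either side. Of 31393 transcript starts in the histone files, 98.5% lay within 50 bases of a RefSeq GRCm38 start. The members and the gene lists were chosen with earlier results of these data known. From each list, those called and averaging 5 CPM or more were named for the restriction comparisons, and other called genes were named after their values were seen. A called gene of the RUNX1 target list is not reported here. Depth limits precision through counting error, and the replicate spread covers the rest.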

Additional observations from a re-analysis of the deposited data

Results flagged for a closer look

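Of 30 groups of 4 libraries examined, 2 had a library far from the other 3, and chance alone flags about 1 in 20 groups. Runx1 in YCR replicate 3 was 135.0 CPM, where the other 3 YCR libraries lay between 156.0 and 157.2 CPM. Runx3 in YCRRF replicate 3 was 22.52 CPM, where the other 3 lay between 11.33 and 13.2 CPM. That library stood apart over the genes at large and not in Runx3 alone. Between pairs of YCRRF libraries, a chi-square per degree of freedom over genes was 153 to 336 with replicate 3 and 28.4 to 56.4 without it. Without YCRRF replicate 3 the log2 fold change of Runx3 in YCRRF versus YCR was -1.43.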

How the results depend on the processing

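The cause of the changes below was not tested. Counts of calls in the restriction, refeeding and age comparisons include Runx3 and Runx1t1, which were chosen from libraries used there, and are no support for either. Of 540 alternative values for the 40 log2 fold changes of the members, 475 kept their direction and side of the threshold, 15 lost a call, 11 gained one and 39 changed sign. In OCR versus OAL the number of members called went from 1 to 2 with DESeq2, with no filter and with at least 10 counts in every library, and leaving out a library gave 1 to 2. In OCRRF versus OCR leaving out a library gave 0 to 2 calls, in YCR versus YAL 0 to 1 and in OAL versus YAL 0 to 1. In YCRRF versus YCR DESeq2 and no filter each gave 1 call, and in the double knockdown DESeq2 gave 2 and Bmpr1a shRNA 1 alone gave 1. ATAC-seq peaks called at the loci went from 0 to 1 without OCR replicate 3 or 4 (range 0 to 1). PU.1 sites in all 6 libraries went from 3 to 1 at a -log10 q of at least 5. Taking the start with the highest H3K4me3 in place of the median over starts gave H3K4me3 of 47.12 and H3K27me3 of 0.1061 for Runx1, 38.94 and 0.1205 for Runx2, 14.73 and 3.575 for Runx3, and 31.56 and 1.581 for Runx1t1.

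Same-numbered libraries did not deviate together, with residual correlations from -0.293 to 0.186 in RNA and -0.0235 and -0.0186 in ATAC-seq, so they share only a number. With a replicate block the members called were 2 in OCR versus OAL, 0 in YCR versus YAL and 0 in OAL versus YAL, and 1 ATAC-seq peak was called at the loci. The block reversed Runx1t1 in YCR versus YAL (0.09723) and, in the Kdr knockdown, Runx1 (-0.1732), Cbfb (0.06341) and Runx1t1 (-0.4395). It left the number of members called as it was in the other 5 RNA comparisons.

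The other sign changes were of values near 0. DESeq2 gave -0.0564 and its size factors -0.05615 for Runx1t1 in OCRRF versus OCR, and 0.001927 and 0.001912 for Cbfb in the Kdr knockdown. At least 10 counts in every library gave 0.03944 for Cbfb in OAL versus YAL, and Bmpr1a shRNA 1 alone gave -0.05106 for Runx1. Leaving out a library gave -0.2654 to 0.2595 for Runx1t1 in OCRRF versus OCR. In YCR versus YAL it gave -0.05245 to 0.1195 for Runx2, -0.03636 to 0.1096 for Cbfb and -0.2828 to 0.2736 for Runx1t1. In YCRRF versus YCR it gave -0.05219 to 0.09384 for Runx1 and -0.1175 to 0.1771 for Runx1t1. In the Kdr knockdown it gave -0.03227 to 0.1448 for Runx1, -0.06255 to 0.06727 for Cbfb and -0.3287 to 0.2163 for Runx1t1, and in the old minus young difference -0.04189 to 0.1148 for Runx1.

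Over all genes the calls moved more. DESeq2 called 2352 against 1110 by edgeR in OCRRF versus OCR, 454 against 68 in YCR versus YAL, 280 against 2 in YCRRF versus YCR, 303 against 3 in the Kdr knockdown, 332 against 1 in the double knockdown and 207 against 9 for the old minus young difference. With no filter the counts were 368 in YCR versus YAL, 275 in YCRRF versus YCR, 6671 against 3486 in OAL versus YAL, 82 and 19 in the knockdowns and 23 for the difference. At least 10 counts in every library gave 1852 in OAL versus YAL, 4 in YCRRF versus YCR, 5 in the Kdr knockdown and 20 for the difference. The replicate block gave 3437 in OCRRF versus OCR, 7 in YCR versus YAL, 0 in YCRRF versus YCR, 1651 in OAL versus YAL, 26 and 0 in the knockdowns, 3 for the difference and 762 against 273 in ATAC-seq. DESeq2 called 182 ATAC-seq peaks.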
